A study of Mus musculus with 24 samples.

Results

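Solute carrier (SLC) genes encode one of the largest groups of membrane proteins, which move small molecules across cell and organelle membranes, among them amino acids, sugars, nucleosides, ions, metals and the intermediates of mitochondrial metabolism. Most use a gradient of sodium, protons or another solute to drive uptake, exchange or release. In the lung they supply epithelium and macrophages with nutrients, set the ion content of the lining fluid, and carry phosphate and choline used by the type 2 cells that make surfactant. The genes described here are those whose symbol is Slc followed by a digit, apart from Slc4a1, Slc12a2 and Slc2a1, and whose brightest probe exceeded background clearly (the scanner's flag for a spot well above background) on 12 or more of the 24 arrays. Of 367 such genes on the array, 303 had enough signal to be tested, 287 met the rule, and 246 of these were well above background on all 24 arrays. The 287 comprise 283 carriers of 50 families and 4 genes named after a carrier that are no transporters themselves.

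Whole lung of healthy C57BL/6 mice was profiled at postnatal days 1, 4, 7, 14 and 42, with 5 arrays per age and 4 at day 42. No treatment or genetic change is given for any group, so age is the one labelled difference, and the labels call the arrays of an age biological replicates without saying that each is a separate animal. For 1 array of day 14, the title gives replicate 4 and the source name replicate 3, and the title was followed. The series title calls the lungs fetal, while the sample labels give postnatal ages. If replicates are not separate animals, the p-values measure only the spread between arrays. Levels are log2 of the processed signal minus the 75th percentile of the array, so a level of 0 lies at that percentile, and levels of different probes cannot be set against each other. Differences are later minus earlier age, in log2 units with the standard error (SE) of the fit, and adjusted p-values come from limma with Benjamini-Hochberg adjustment over 15895 genes, with 0.05 as the threshold. The number of arrays limits the precision.

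As a check of the tissue, 7 of 7 lung markers (Sftpc, Sftpb, Sftpa1, Ager, Scgb1a1, Cldn5 and Pecam1) were well above background on all 24 arrays. A set of 5 arrays (at day 1, replicates 4 and 5; at day 4, the first and the third; at day 42, the fourth) stood apart on the first principal component of all genes, which held 49.9% of the variance. Over the 287 carriers, the median level of these 5 arrays lay above that of the other arrays of the same age by 0.70 at day 1, 0.62 at day 4 and 0.83 at day 42. Over all genes tested the same shifts were 0.60, 0.53 and 0.67. These 5 arrays had the lowest shares of spots well above background, 50.4% to 56.0%, against 57.0% to 79.7% on the others. Their 75th percentiles, to which levels are scaled, were also the lowest, at 476 to 978 against 995 to 1652. What part this low signal has in their position was not tested. Day 14 replicate 5 lay nearer to the day 7 mean than to the other day 14 arrays for 29 of the 37 carriers that differed between those ages. Counts are therefore given with and without the 5 arrays. The rule is also uneven in time: a gene seen at days 14 and 42 alone has 9 arrays and cannot qualify, whereas one seen at days 1, 4 and 7 alone has 15.

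The promoters of 4 carriers among the 7 with the largest differences between day 42 and day 1, and of the zinc exporter Slc30a1 as a promoter rich in CpG, show what these start regions look like. RefSeq (GRCm38.p6) gave a promoter for 222 of the 287 genes, and the 250 bases before the start are printed 5′ to 3′, with matches to the searched motifs in capitals. The motifs, searched on both strands and free to overlap each other, were the TATA box (TATAAA), the CCAAT box (CCAAT), the GC box (GGGCGG), the E-box (CACGTG), the metal response element (read as TGCACNC and also as TGCGCNC), the core of the amino acid response element (TGATGNAA) and the glucocorticoid response element.
Slc26a4, chr12:31559985-31560234, minus strand: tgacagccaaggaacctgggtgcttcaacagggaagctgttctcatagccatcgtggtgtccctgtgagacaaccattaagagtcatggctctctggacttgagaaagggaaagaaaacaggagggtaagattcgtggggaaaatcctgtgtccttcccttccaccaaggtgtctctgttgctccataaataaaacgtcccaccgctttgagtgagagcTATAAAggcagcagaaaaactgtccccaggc
Slc13a4, chr6:35308127-35308376, minus strand: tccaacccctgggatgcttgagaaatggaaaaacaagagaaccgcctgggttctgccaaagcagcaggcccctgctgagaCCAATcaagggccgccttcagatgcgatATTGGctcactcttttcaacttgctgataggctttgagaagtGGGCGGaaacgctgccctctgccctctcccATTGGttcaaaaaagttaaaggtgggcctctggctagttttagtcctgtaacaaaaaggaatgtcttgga
Slc10a6, chr5:103629404-103629653, minus strand: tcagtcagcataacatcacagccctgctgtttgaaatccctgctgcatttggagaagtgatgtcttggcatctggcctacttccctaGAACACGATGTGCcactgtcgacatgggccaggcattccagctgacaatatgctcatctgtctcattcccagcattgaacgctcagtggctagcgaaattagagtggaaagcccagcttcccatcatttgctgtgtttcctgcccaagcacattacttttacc
Slc17a2, chr13:23806743-23806992, plus strand: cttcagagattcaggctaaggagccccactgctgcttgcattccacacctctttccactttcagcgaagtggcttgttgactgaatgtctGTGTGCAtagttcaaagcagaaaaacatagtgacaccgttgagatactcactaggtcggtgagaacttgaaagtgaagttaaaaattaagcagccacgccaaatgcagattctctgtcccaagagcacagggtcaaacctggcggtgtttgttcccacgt
Slc30a1, chr1:191906531-191906780, plus strand: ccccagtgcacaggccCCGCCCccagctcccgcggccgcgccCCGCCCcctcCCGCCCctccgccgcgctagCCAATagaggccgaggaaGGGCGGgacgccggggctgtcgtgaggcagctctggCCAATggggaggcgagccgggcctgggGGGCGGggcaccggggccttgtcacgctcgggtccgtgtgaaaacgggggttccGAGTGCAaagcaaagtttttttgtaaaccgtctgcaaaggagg
The Slc26a4 promoter held a TATAAA match at bases -31 to -26, counted back from the start. That motif was in 13.0% of all 27025 promoters counted, 1 per gene. Some genes have several starts, and the shares and CpG medians given here use 1 start of each gene. Slc13a4 had 3 CCAAT matches and 1 GC box, motifs found in 34.5% and 32.9% of all promoters. The capitals in Slc10a6 mark a match to the glucocorticoid response element at -163 to -151, found in 0.38% of all promoters, and those in Slc17a2 a metal response element, found in 21.3%. Slc30a1 held 5 GC boxes, 2 CCAAT matches and 1 metal response element. A match describes letters in this window and shows no binding. For the 12 members with a promoter and a log2 difference of at least 2 between day 42 and day 1, the median ratio of observed to expected CpG was 0.29, against 0.63 in the 21 that passed with a difference under 1. The same medians over all genes tested were 0.40 and 0.69, so large differences went with CpG-poor promoters among genes in general too.

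Within the first week, neither comparison of neighbouring ages called a carrier. Day 4 against day 1 gave 0 of 287 (13 at an unadjusted p under 0.05; 0.0566% of all genes passed), and day 7 against day 4 also gave 0 (33 unadjusted; 0.00629% of all genes). Across the whole week, day 7 against day 1 called 7 carriers, all lower at day 7, beside 2.59% of all genes. The direction of the calls over all genes is not given for these ages. Genes in general were lower at day 7 than at day 4, with a median over all genes of -0.27, and -0.06 without the 5 arrays. The shared direction of the 7 is therefore not read as particular to carriers. Between day 14 and day 7, 37 carriers passed, 27 higher and 10 lower at day 14, which is 12.9% of the members beside 11.3% of all genes (6.0% higher and 5.3% lower). Between day 42 and day 14, 8 passed, 3 higher and 5 lower, or 2.79% beside 3.66% of all genes (2.2% higher and 1.45% lower). Over the whole span, 73 differed between day 42 and day 1, 45 higher and 28 lower, or 25.4% beside 26.3% of all genes (12.9% higher and 13.4% lower). An F-test over the 5 ages called 89, which is 31.0% of the members beside 31.4% of all genes. These shares lie near those of all genes, so nothing is read from them about carriers as a class. Over day 42 against day 1, 8 of 10 alveolar macrophage genes and 6 of 7 adipocyte genes tested were higher at day 42. Their summed levels ranged from 236 to 281 and from 19.8 to 409 at day 42, against 41.4 to 96.8 and 3.13 to 15.4 at day 1, in units of the array's 75th percentile. What part these cells have in the carriers' levels was not tested. In whole lung, fewer cells of a type and less RNA per cell cannot be told apart.

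Without the 5 arrays the counts were 123 for day 14 against day 7 (38.0% of all genes), 38 for day 42 against day 14 (13.2%), 139 for day 42 against day 1 (46.2%) and 163 over the 5 ages (53.4%), and they stayed at 0 for day 4 against day 1 and day 7 against day 4 (0.0755% and 0.0503% of all genes). None of the 5 arrays is of day 7 or day 14. The differences for day 14 against day 7 therefore cannot change, and only the estimate of the spread does. The 8 and 73 carriers called with 24 arrays for day 42 against day 14 and against day 1 kept their sign. The calls kept were 37 of 37, 7 of 8 and 71 of 73. Slc26a4 lost its call for day 42 against day 14. Within each of the 3 slides the direction was the same for 37 of 37, 8 of 8 and 56 of 73.

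**Figure D1:**
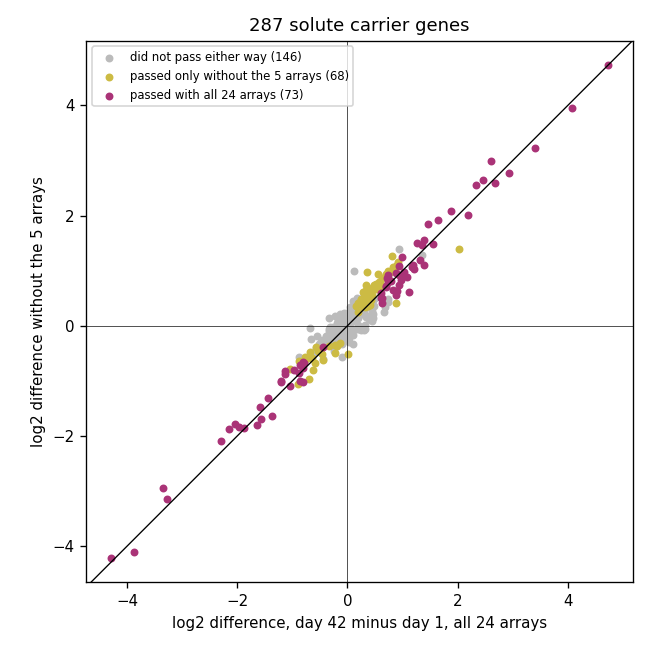
Each point is 1 of the 287 carrier genes, with the log2 difference of day 42 minus day 1 from all 24 arrays on the horizontal axis and from the arrays left without the 5 that stood apart on the vertical axis; the diagonal is equality. The 73 that passed with all arrays lie along the diagonal, and 68 more passed only without the 5 arrays.

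The split between higher and lower carriers depended on the scaling. The same splits over all genes are not given for these settings, so the changes are not read as particular to carriers. With each array centred on its median, 9 were higher and 10 lower at day 14 than at day 7, in place of 27 and 10, and the median of all genes for that comparison was -0.17, in place of 0.03. For day 42 against day 1, background correction by normexp gave 32 higher and 29 lower, in place of 45 and 28. For day 42 against day 14, the split of 3 higher and 5 lower became 5 and 3 with normexp, 4 and 3 with median scaling, 9 and 6 with quantile normalization and 17 and 11 in the authors' deposited values.

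**Figure D2:**
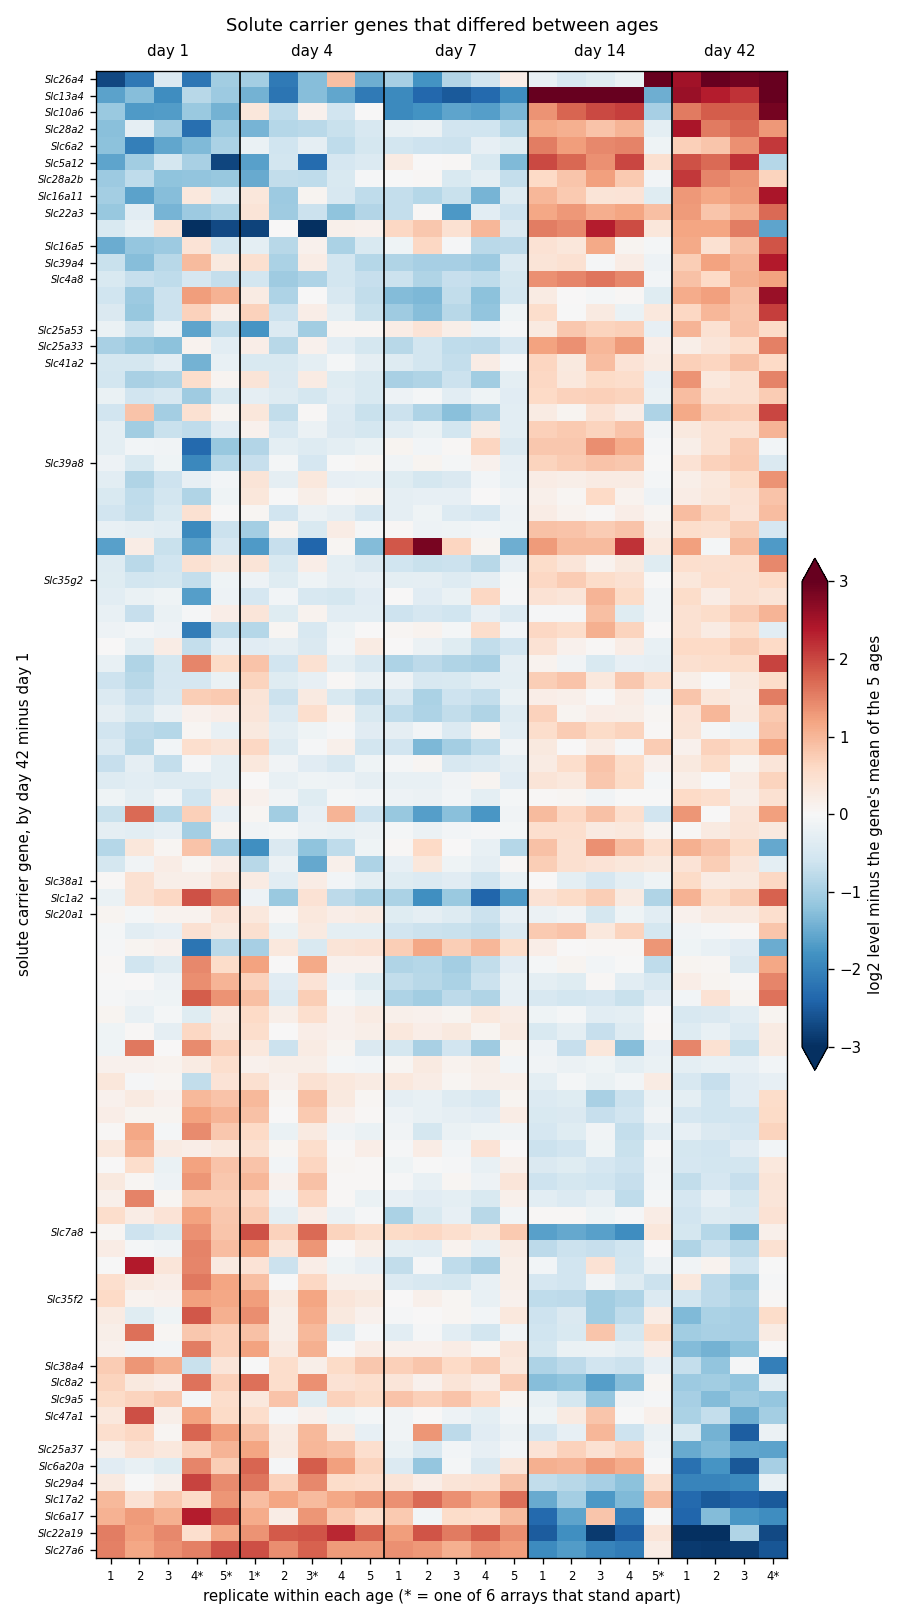
Rows are the carrier genes that passed the F-test over the 5 ages, ordered by day 42 minus day 1, and columns are the 24 arrays by age; colour is the log2 level minus the mean of the gene's 5 age means, asterisks mark the 5 arrays and day 14 replicate 5, and the rows labelled are those of genes chosen by the naming rule. Of these 89 rows, 37 passed for day 14 against day 7, and day 14 replicate 5 lies nearer to the day 7 mean in 29 of them.

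The counts for each transport group are read beside the 12.9% of all genes that were higher and the 13.4% that were lower at day 42 than at day 1. Carriers of organic anions, cations and bile acids had 5 members higher and 6 lower at day 42 than at day 1, of 31. Slc13a4, a sodium-coupled sulfate carrier, had levels of -3.55, -3.23, -3.82, -2.78 and -3.05 at day 1, and -3.36, -4.15, -3.22, -3.50 and -4.08 at day 4. At day 7 it had -3.86, -4.29, -4.47, -4.27 and -3.80, at day 14 it had 1.76, 1.88, 1.25, 1.33 and -3.41, and at day 42 it had 0.64, 0.41, 0.23 and 1.90. All 4 arrays of day 42 and 4 of 5 at day 14 lay above all 15 earlier arrays, while day 14 replicate 5 lay within their range. The difference was 4.70 ± 0.66 for day 14 minus day 7 (adjusted p = 5.79e-05), or 26.0-fold, and 5.69 without that replicate. For day 42 minus day 1 it was 4.08 ± 0.70 (adjusted p = 0.000105), or 16.9-fold.

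Slc10a6, a carrier of sulfated steroid hormones, had levels of -1.48, -2.06, -2.03, -1.47 and -1.77 at day 1, and -0.02, -1.12, -0.24, -0.94 and -0.35 at day 4. It had -2.28, -2.16, -1.95, -2.02 and -1.73 at day 7, then 0.99, 1.39, 1.61, 1.71 and -1.35 at day 14, and 1.19, 1.45, 1.46 and 2.50 at day 42. The groups at days 42 and 1 did not overlap, the day 4 arrays all lay above those of days 1 and 7, and day 14 replicate 5 fell among the early arrays. Slc10a6 was higher by 2.90 ± 0.41 at day 14 than at day 7 (adjusted p = 6.47e-05) and by 3.41 ± 0.44 at day 42 than at day 1 (adjusted p = 2.97e-06). The higher levels at day 4 than at days 1 and 7 were not called in either comparison.

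Slc22a3, an organic cation carrier, was well above background on 9 of 9 arrays of days 14 and 42 and on 3 of 15 at the earlier ages, so its earlier levels rest on dim spots. It averaged -4.01 ± 0.15 at day 14 and -5.80 ± 0.66 at day 7 (SD, n = 5 each), a fitted difference of 1.79, against 0.60 with normexp (adjusted p = 0.163). Because it met the rule mainly through its late arrays, the difference is a description. Slc22a3 sits at the edge of the rule with 12 arrays, as does Slc1a2, beside Slc16a4 with 13. Slc13a5, Slc23a4 and Slc5a2, with 9 arrays each, lie just outside it.

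The largest falls of this group were seen in Slc22a19, an organic anion carrier known from kidney, and Slc17a2, a member of the sodium-phosphate and organic anion family. Slc22a19 had levels of -1.39, -1.69, -1.47, -2.42 and -1.79 at day 1, -1.57, -1.09, -1.04, -0.66 and -1.19 at day 4, and -1.66, -1.05, -1.36, -1.10 and -1.54 at day 7. It had -5.41, -4.76, -5.79, -5.38 and -2.56 at day 14 and -6.36, -6.69, -3.84 and -5.64 at day 42. All 9 late arrays lay below all 15 early ones, and the probe was well above background on 2 of 5 arrays at day 14 and 1 of 4 at day 42. The difference was -3.44 ± 0.49 for day 14 minus day 7 (adjusted p = 7.09e-05) and -3.88 ± 0.52 for day 42 minus day 1 (adjusted p = 5.92e-06). Since most of those late spots were not well above background, these differences rest in part on signal near background.

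Slc17a2 had levels of -0.08, -0.61, -0.27, -0.48 and 0.28 at day 1, -0.13, 0.12, -0.11, 0.10 and 0.27 at day 4, and 0.32, 0.65, 0.32, 0.04 and 0.60 at day 7. It had -2.56, -2.07, -2.78, -2.38 and -0.12 at day 14 and -3.38, -3.56, -3.47 and -3.58 at day 42. The day 42 arrays lay together below every other array, and day 14 replicate 5 was again near the early levels. It fell by 2.37 ± 0.33 between day 14 and day 7 (adjusted p = 5.56e-05) and by 1.52 ± 0.35 between day 42 and day 14 (adjusted p = 0.0147). The call of the later comparison was lost with normexp (adjusted p = 0.0502), with median scaling (adjusted p = 0.0713) and with only those ages in the fit (adjusted p = 0.16). Slc47a1, a proton-coupled extruder of organic cations, averaged -4.15 ± 0.32 at day 42 (SD, n = 4) and -2.28 ± 0.72 at day 1 (SD, n = 5), a difference of -1.87 ± 0.28 (adjusted p = 1.88e-05). Its neighbour on chromosome 11, Slc47a2, was lower by 0.88 ± 0.25 (adjusted p = 0.00975).

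**Figure D3:**
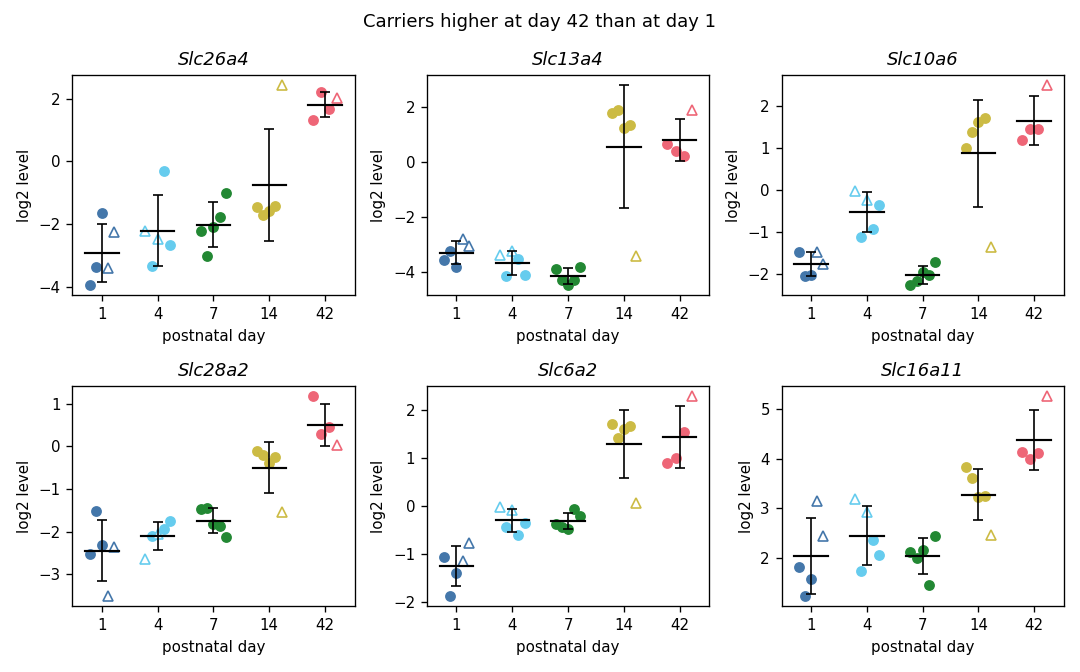
Log2 level of 6 carriers by postnatal day, 1 point per array, with the mean and SD of each age as a bar; open triangles are the 5 arrays that stood apart and day 14 replicate 5. Slc13a4, Slc10a6 and Slc6a2 were high from day 14, and Slc26a4 was high at day 42 and on 1 array of day 14.

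Carriers of ions and acid-base equivalents had 7 members higher and 4 lower at day 42 than at day 1, of 40. Slc26a4 (pendrin), an exchanger of chloride, iodide and bicarbonate, had levels of -3.96, -3.36, -1.66, -3.39 and -2.26 at day 1, and -2.24, -3.34, -2.49, -0.32 and -2.68 at day 4. It had -2.22, -3.01, -2.11, -1.79 and -1.01 at day 7, -1.45, -1.71, -1.59, -1.41 and 2.44 at day 14, and 1.31, 2.22, 1.68 and 2.01 at day 42. The day 42 arrays lay above every earlier one but day 14 replicate 5, which was the highest of all 24. The difference of 4.73 ± 0.71 for day 42 minus day 1 (adjusted p = 2.09e-05, 26.6-fold) was the largest rise among the members. For day 42 minus day 14 it was 2.55 ± 0.71 (adjusted p = 0.0459), with 3.34 ± 0.53 without day 14 replicate 5 (adjusted p = 0.000618) and 2.48 ± 0.87 without the 5 arrays (adjusted p = 0.0707). That call was also lost on leaving out any single array among all 4 at day 42, replicates 1 to 4 at day 14, replicates 1, 3 and 4 at day 7, or replicates 1, 3 and 5 at day 4 (highest adjusted p = 0.12). The same replicate lay near the early levels in Slc13a4, Slc10a6 and Slc17a2, and above the day 42 levels in Slc26a4.

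Slc4a8, a sodium-driven exchanger of chloride and bicarbonate, averaged -1.13 ± 0.70 at day 14 and -2.99 ± 0.14 at day 7 (SD, n = 5 each). The difference was 1.87 ± 0.23 (adjusted p = 2.25e-05), and between day 42 and day 14 it was -0.22 ± 0.25 (adjusted p = 0.697). The phosphate carrier Slc20a1 was lowest at day 7, with 3.62, 3.70, 3.58, 3.33 and 3.73, against 4.06, 3.91, 4.08, 4.08 and 4.39 at day 1. Day 42 levels of 4.11, 4.24, 4.24 and 4.47 lay above the day 14 levels by 0.54 ± 0.14 (adjusted p = 0.0321), while a second probe gave 0.15 ± 0.32. The call was lost on leaving out any 1 of 6 late arrays (day 14 replicates 1, 3 and 5, and day 42 replicates 2, 3 and 4). It was lost too with quantile, median and block settings, in the authors' deposited values and with the mean of its probes. Of the exchangers that fell, the sodium-calcium exchanger Slc8a2 was lower by 1.43 ± 0.32 at day 14 than at day 7 (adjusted p = 0.00374). The sodium-proton exchanger Slc9a5 was lower by 1.63 ± 0.25 at day 42 than at day 1 (adjusted p = 3.35e-05). Slc34a2, the phosphate carrier of type 2 cells, is named for that known place and not by the rule; its difference of 0.58 ± 0.29 for day 42 minus day 1 did not pass (adjusted p = 0.164), and did without the 5 arrays (adjusted p = 0.012).

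Amino acid and neurotransmitter carriers were the largest group, with 6 of 51 higher and 8 lower at day 42 than at day 1. Slc6a2, the noradrenaline transporter, had levels of -1.07, -1.87, -1.40, -1.15 and -0.78 at day 1, -0.03, -0.43, -0.09, -0.60 and -0.35 at day 4, and -0.38, -0.45, -0.47, -0.07 and -0.20 at day 7. It had 1.70, 1.42, 1.60, 1.66 and 0.05 at day 14 and 0.89, 1.00, 1.53 and 2.29 at day 42. Every later array exceeded every array of day 1, and day 42 and day 14 overlapped. The difference was 1.60 ± 0.29 for day 14 minus day 7 (adjusted p = 0.000676) and 2.68 ± 0.31 for day 42 minus day 1 (adjusted p = 7.48e-07).

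Slc6a20a, a carrier of proline and other imino acids, had levels of 2.07, 2.18, 2.06, 3.88 and 3.15 at day 1, 4.15, 2.37, 4.21, 3.64 and 3.07 at day 4, and 2.00, 1.25, 2.34, 1.96 and 2.77 at day 7. It had 3.47, 3.42, 3.69, 3.52 and 2.39 at day 14 and 0.16, 0.64, -0.13 and 1.41 at day 42. The day 42 arrays lay below all arrays of days 1, 4 and 14, with the 5 arrays that stand apart the highest of their ages. It fell by 2.78 ± 0.43 between day 42 and day 14 (adjusted p = 0.00053) and by 2.15 ± 0.43 between day 42 and day 1 (adjusted p = 0.00062). Slc6a17, which loads amino acids into synaptic vesicles, was well above background on 0 of 4 arrays at day 42 and on 5 of 5 at day 1, and was at least 4.46-fold lower at day 42 (adjusted p = 1.36e-05). That bound sets the day 1 mean against, for each day 42 array, the higher of its lowest signal well above background and the probe's own; the measured means were -6.60 at day 42 and -3.26 at day 1.

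Of 10 members of the Slc38 family, which take up glutamine and other neutral amino acids, 3 were lower and none higher at day 42 than at day 1. These were Slc38a3, Slc38a4 and Slc38a5, of which Slc38a3 and Slc38a5 are named after their values were seen; Slc38a5 lost its call without day 1 replicate 4 or 5 or day 42 replicate 1, 2 or 3 (highest adjusted p = 0.123). Slc38a4 was lower by 1.28 ± 0.33 at day 14 than at day 7 (adjusted p = 0.0112). Slc38a1 was higher by 0.68 ± 0.16 at day 42 than at day 14 (adjusted p = 0.0158). The Slc38a1 call was lost without day 42 replicate 1 or 4 (adjusted p = 0.0585 and 0.052). Slc38a1 averaged 0.54 ± 0.13 at day 7, where it was lowest, against 1.17 ± 0.17 at day 1 (SD, n = 5 each), a difference of -0.64 ± 0.15 (adjusted p = 0.0263). Slc7a8, an exchanger of large neutral amino acids, had levels of -1.40, -1.31, -1.41, -1.63 and 0.57 at day 14, against 0.81, 0.85, 0.73, 0.57 and 1.00 at day 7. The groups did not overlap, day 14 replicate 5 lay just under the lowest day 7 array, and the difference was -1.83 ± 0.42 (adjusted p = 0.00472). The glutamate carrier Slc1a2 was well above background on 0 of 10 arrays of days 4 and 7, and on 4 of 5 at day 14. It was at least 1.33-fold higher at day 14 than at day 7. Because Slc1a2 met the rule only through arrays of days 1, 14 and 42, this difference is a description. It did not pass with normexp (adjusted p = 0.283) or with the mean of the gene's probes (adjusted p = 0.241).

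Carriers of lipids, choline, nucleosides and vitamins had 9 members higher and 3 lower at day 42 than at day 1, of 31, with the largest fall of all members among them. Slc27a6, a fatty acid transport protein, had levels of 2.15, 1.80, 2.01, 2.16 and 2.56 at day 1, 2.57, 2.03, 2.41, 1.92 and 1.92 at day 4, and 2.01, 1.95, 1.70, 1.99 and 1.90 at day 7. It had -1.23, -1.04, -1.34, -1.46 and 0.87 at day 14 and -2.22, -2.26, -2.19 and -1.92 at day 42. All 15 early arrays lay above all 9 late ones. The difference was -2.75 ± 0.30 for day 14 minus day 7 (adjusted p = 8.06e-06) and -4.28 ± 0.32 for day 42 minus day 1 (adjusted p = 3.42e-09), or 19.5-fold lower at day 42.

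The nucleoside carrier Slc28a2 averaged 0.50 ± 0.50 at day 42 (SD, n = 4) and -2.44 ± 0.71 at day 1 (SD, n = 5), with means of -2.10, -1.74 and -0.49 at days 4, 7 and 14. It rose by 2.94 ± 0.33 between day 42 and day 1 (adjusted p = 5.98e-07), and its adjacent copy on chromosome 2, Slc28a2b, by 2.47 ± 0.29 (adjusted p = 1.03e-06). These copies are similar and their probes may share signal. Both vitamin C carriers rose between day 42 and day 1, Slc23a2 by 1.02 ± 0.18 (adjusted p = 0.00011) and Slc23a1 by 0.83 ± 0.20 (adjusted p = 0.0028). They are named here after their values were seen. The Slc23a1 call was lost with normexp (0.41, adjusted p = 0.0543) and with only those ages in the fit (adjusted p = 0.0553). Slc29a4, a carrier of monoamines, averaged -1.07 ± 0.87 at day 42 (SD, n = 4) and 1.22 ± 0.90 at day 1 (SD, n = 5), a difference of -2.29 ± 0.43 (adjusted p = 0.00031).

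**Figure D4:**
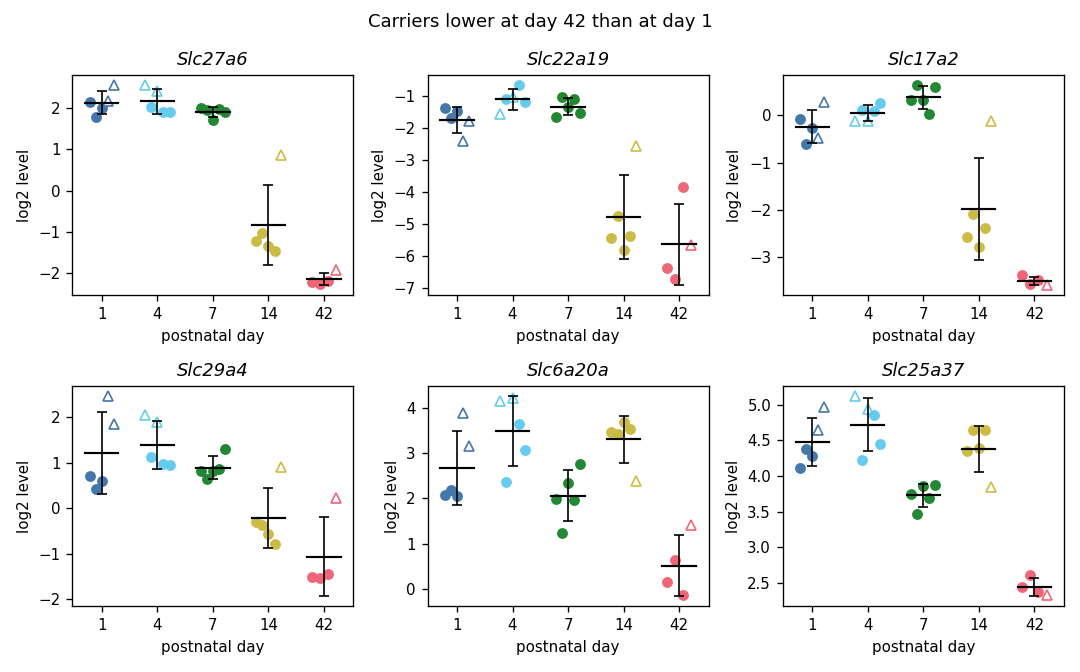
Log2 level of 6 carriers by postnatal day, 1 point per array, with the mean and SD of each age as a bar; open triangles are the 5 arrays that stood apart and day 14 replicate 5. Slc27a6, Slc22a19 and Slc17a2 were low from day 14 on, and Slc6a20a and Slc25a37 were low at day 42.

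Mitochondrial carriers had 4 members higher and 4 lower at day 42 than at day 1, of 41. Slc25a37 (mitoferrin 1), which brings iron into mitochondria for heme in red cell precursors, had levels of 4.11, 4.38, 4.27, 4.65 and 4.96 at day 1, 5.13, 4.22, 4.94, 4.85 and 4.44 at day 4, and 3.74, 3.47, 3.86, 3.70 and 3.88 at day 7. It had 4.35, 4.64, 4.40, 4.65 and 3.84 at day 14 and 2.45, 2.62, 2.37 and 2.34 at day 42. The day 42 arrays lay together below all 20 others. It fell by 1.93 ± 0.21 between day 42 and day 14 (adjusted p = 4.76e-06), and was higher by 0.65 ± 0.19 at day 14 than at day 7 (adjusted p = 0.0318). The call for day 14 against day 7 was lost with median scaling (adjusted p = 0.378) and without day 7 replicate 1, 2 or 4 or day 14 replicate 1, 2, 3 or 4 (highest adjusted p = 0.0975). A second probe of the gene gave -1.03 ± 0.24 for day 42 minus day 14. Of 9 red cell precursor markers tested, 6 were lower and none higher at day 42 than at day 14; their summed level, relative to the array's 75th percentile, ranged from 315 to 751 at day 42 and from 629 to 779 at day 14. Klf1, one of their defining genes, was not tested, and the part of these cells in the fall of Slc25a37 was not tested.

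Slc25a33, a carrier of pyrimidine nucleotides, averaged 2.46 ± 0.48 at day 14 and 0.76 ± 0.15 at day 7 (SD, n = 5 each), a difference of 1.70 ± 0.29 (adjusted p = 0.000383). Slc25a53, a carrier with no substrate given here, was higher by 1.39 ± 0.33 at day 42 than at day 1 (adjusted p = 0.00288), from a probe well above background on 3 of 5 arrays at day 1; with normexp it was 0.13 (adjusted p = 0.692). Over the same ages, 10 of 10 cell division genes were lower at day 42, with a summed level of 8.97 to 13.1 at day 42 and 98.2 to 147 at day 1. Their part in the carriers' levels was not tested.

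Of 36 carriers of sugars and monocarboxylates, 5 were higher and 1 lower at day 42 than at day 1. Slc5a12, a sodium-coupled lactate carrier, had levels of -0.34, -0.54, -0.05 and -3.09 at day 42, against -3.83, -3.28, -2.77, -3.22 and -4.99 at day 1. Day 42 replicate 4, which is one of the 5 arrays, lay among the day 1 arrays. The difference was 2.61 ± 0.56 (adjusted p = 0.00106), and 3.31 without that array. Slc16a11, of the monocarboxylate family, had levels of 4.14, 3.99, 4.10 and 5.27 at day 42, against 1.80, 1.22, 1.56, 3.14 and 2.44 at day 1, with no overlap. It rose by 2.34 ± 0.38 (adjusted p = 5.05e-05), and its relative Slc16a5 by 1.87 ± 0.37 (adjusted p = 0.000531), a difference of 0.66 with normexp (adjusted p = 0.0882).

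The metal carriers had 5 of 28 members higher and none lower at day 42 than at day 1. They were the zinc importers Slc39a4 and Slc39a8, the zinc exporter Slc30a1, the magnesium carrier Slc41a2 and Slc31a2 of the copper carrier family. With only those ages in the fit, Slc39a4, Slc39a8, Slc30a1 and Slc31a2 lost their calls (adjusted p = 0.0588, 0.144, 0.179 and 0.195). Slc31a2 also lost its call with median scaling (adjusted p = 0.0818). In the authors' deposited values, Slc39a8 and Slc30a1 lost theirs (adjusted p = 0.0517 and 0.0598). Slc39a4 had levels of 5.31, 5.77, 5.59 and 6.96 at day 42, against 3.90, 3.28, 3.74, 5.51 and 4.85 at day 1. The groups overlapped through day 1 replicate 4, one of the 5 arrays, and the difference was 1.65 ± 0.39 (adjusted p = 0.00277). Slc41a2 averaged -1.38 ± 0.12 at day 42 (SD, n = 4) and -2.69 ± 0.47 at day 1 (SD, n = 5), a difference of 1.31 ± 0.22 (adjusted p = 0.000102). Slc30a1, whose promoter is printed above, was higher by 0.98 ± 0.32 (adjusted p = 0.0242), with the opposite sign within 1 of the 3 slides. Its call was lost without day 1 replicate 4 or day 42 replicate 1, 2 or 3 (highest adjusted p = 0.0925). Slc39a8 was higher by 1.07 ± 0.31 (adjusted p = 0.0116), a call lost without day 42 replicate 3 (adjusted p = 0.0507). Without the 5 arrays, 8 metal carriers were higher and 2 lower, where 22.6% of all genes were higher and 23.6% lower.

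Of 25 members of the Slc35 and Slc33 families, grouped as carriers of nucleotide sugars and acetyl-CoA, 4 were higher and 2 lower at day 42 than at day 1. The group follows the family number, and the substrate of each member was not checked. Slc35g2 averaged 1.20 ± 0.11 at day 42 (SD, n = 4) and 0.26 ± 0.22 at day 1 (SD, n = 5), a difference of 0.94 ± 0.15 (adjusted p = 6.48e-05). Slc35f2 was lower by 1.20 ± 0.27 (adjusted p = 0.00155), and Slc35d3 was higher by 0.93 ± 0.29 (adjusted p = 0.0207). The Slc35d3 value was 0.04 with normexp (adjusted p = 0.893), and its call was lost without day 1 replicate 4 or day 42 replicate 1 (adjusted p = 0.0586 and 0.0547). The scaffold genes Slc9a3r2 and Slc9a3r1, which anchor transporters at the membrane, gave differences of 0.92 ± 0.40 and 0.57 ± 0.38 that did not pass (adjusted p = 0.104 and 0.307); both passed without the 5 arrays.

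**Figure D5:**
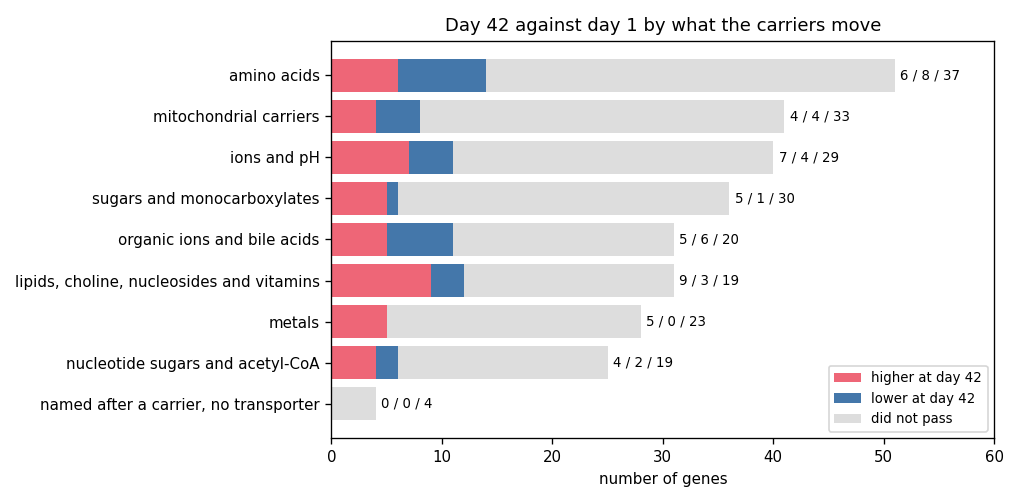
Bars give the number of members of each transport group, split into those higher at day 42 than at day 1, those lower, and those that did not pass, with the 3 counts printed beside each bar. Groups overlap in function and the split is a description. The metal carriers had 5 higher and 0 lower, and not all of these calls held under the alternatives.

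At the median of the carriers called between day 42 and day 1, most of that difference had been reached by day 14. Of the 45 carriers higher at day 42 than at day 1, the median share of the difference reached was 18.8% by day 4, 23.5% by day 7 and 79.6% by day 14. For the 28 that were lower, the shares were 9.22%, 41.6% and 82.7%. Single carriers varied widely. By day 14 the shares ranged from -1.24% to 150% among the higher carriers, with 14 of 45 past 100%. Among the lower ones they ranged from -29.4% to 134%, with 11 of 28 past 100%. These medians describe carriers that were chosen by the day 42 against day 1 difference. The same shares are not given over all genes, so they are not read as particular to carriers. In all, 31 carriers passed both for day 14 against day 7 and for day 42 against day 1. These comparisons share no arrays but 1 estimate of the spread. The same overlap is not given over all genes, so nothing is read from it about carriers as a class. Among the 89 that differed between ages, 19 had their highest mean at day 14, or 21.3%, beside 9.66% of the 4742 genes on at least 12 arrays that differed. The highest mean was at day 42 for 33 (37.1% beside 37.5%) and at day 1 for 18 (20.2% beside 30.8%). The lowest mean was at day 1 for 28 (31.5% beside 19.8%) and at day 7 for 27 (30.3% beside 24.3%). No test was made of these shares.

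Carriers with the smallest range of age means were Slc10a1, Slc30a7, Slc36a4, Slc35e3, Slc26a11 and Slc22a13. Slc10a1, the bile acid carrier of hepatocytes, had levels between 8.54 and 9.23 on the 24 arrays, and a difference of 0.03 ± 0.16 for day 42 minus day 1 (adjusted p = 0.92). This probe was well above background on all arrays, and its sequence was not used here. The levels are those of the gene's brightest probe alone. With the mean of the gene's probes the difference was -0.08 (adjusted p = 0.885), and the levels of any other probe are not given. How much Slc10a1 RNA the lung holds is therefore not read from these levels. The zinc carrier Slc30a7 of the Golgi differed by 0.13 ± 0.14 (adjusted p = 0.548), in contrast to Slc30a1. A p above the threshold does not show that a level was constant.

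Genes related to the carriers were counted from lists of other symbols. Among 32 tested members of the superfamily with other symbols, 6 were higher and 2 lower at day 42 than at day 1, where 12.9% of all genes were higher and 13.4% lower. Mfsd2a, a carrier of lysophospholipids, averaged 1.81 ± 0.53 at day 42 (SD, n = 4) and -2.97 ± 0.65 at day 1 (SD, n = 5), a difference of 4.79 ± 0.47 (adjusted p = 8.9e-08). The organic anion carrier Slco1a5 was higher by 3.25 ± 0.45 (adjusted p = 6.95e-06). Of 23 partner subunits and pumps tested, 4 were higher and 2 lower. Emb, the ancillary protein of monocarboxylate carriers, was higher by 1.27 ± 0.20 (adjusted p = 4.39e-05), and Car2, a carbonic anhydrase that supplies bicarbonate, was lower by 2.03 ± 0.16 (adjusted p = 5.07e-09).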

How the data were processed

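Total RNA of whole lung was hybridised to 24 single-channel Cy3 arrays, per the labels. Barcodes in the file headers place the arrays on 3 slides. Scan date coincided with slide, so slide and scan cannot be told apart. The authors deposited the scanner output of each array, in which Agilent Feature Extraction had turned pixel brightness into a background-subtracted intensity per spot; the program's version is 10.7.3.1 in the file headers and 10.7.1.1 in the submitters' processing notes. The same deposited scans mark, as 0 or 1, whether a spot cleared background, was saturated or was uneven. The authors also deposited log2 values per probe, which served as an alternative; how those were normalized is not given in the sources used here.

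Log2 of the processed signal minus the 75th percentile of each array was used. Control spots and spots that were not uniform were left out, and spots of a probe were averaged. Probes were named through RefSeq gene tables (GRCm38.p6, names only), where 26056 of the 32335 probes that carry a RefSeq accession found a gene. The probe with the highest mean stood for its gene: 64 members had more than 1 tested probe, and of 13 such members that differed between day 42 and day 1 all probes had 1 sign in 12. Genes well above background on at least 4 arrays, 15895 in all, entered 1 fit of the 5 ages with limma 3.58.1 in R 4.3.3, with Benjamini-Hochberg adjustment per comparison. The fit was also run on simulated data, and as no outcome of that run is given, nothing is read from it about these arrays. No array had a saturated spot.

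Named genes were, per comparison, the 6 largest rises and 6 largest falls among members that passed and whose 2 ages did not overlap. Added to these were 3 members per transport group with the largest difference between day 42 and day 1 (2 if none passed), members lowest or highest at an intermediate age, the 6 with the smallest range, and those at the edge of the rule. Exceptions are marked. The members, lists and transport groups were chosen with earlier results of these data known. Alternatives covered background correction, scaling, the filter on dim probes, the choice of probe, slide, replicate number and arrays left out. The files used here hold no mean spot signal, so normexp (offset 50) ran on the median spot and background intensities.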

Additional observations from a re-analysis of the deposited data

Results flagged for a closer look

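In 25 of 215 groups of named carriers by age, the highest or lowest array lay far from the rest of its group (past Dixon's limit at the 95% level); chance flags about 1 in 20 groups. The arrays concerned are few, and 14 of the 25 values came from day 14 replicate 5.

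On day 14 replicate 5 the sulfate carrier Slc13a4 had -3.41, against 1.25 to 1.88 on the other day 14 arrays, and Slc10a6 had -1.35, against 0.99 to 1.71. Slc6a2 had 0.053, against 1.42 to 1.70, Slc4a8 had -2.36, against -0.92 to -0.67, and Slc28a2 had -1.54, against -0.39 to -0.11. Slc6a20a had 2.39, against 3.42 to 3.69, Slc39a8 had 2.89, against 3.55 to 3.75, and Slc1a2 had -6.21, against -5.03 to -4.58. These 8 carriers were lower there than on the other arrays of that age. The fatty acid carrier Slc27a6 had 0.87, against -1.46 to -1.04, and Slc17a2 had -0.12, against -2.78 to -2.07. Slc29a4 had 0.92, against -0.78 to -0.30, Slc7a8 had 0.57, against -1.63 to -1.31, and Slc8a2 had -1.81, against -3.51 to -3.09. Slc26a4 had 2.44, against -1.71 to -1.41. These 6 were higher there.

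On day 42 replicate 4, one of the 5 arrays that stood apart, Slc16a11 had 5.27, against 3.99 to 4.14, Slc26a11 had 2.72, against 1.87 to 1.94, and Slc29a4 had 0.23, against -1.54 to -1.46. Slc8a2 had -2.13, against -3.05 to -2.91, and the scaffold gene Slc9a3r1 had 2.87, against 1.47 to 1.66. The carriers Slc16a4 and Slc5a12 went the other way, with -6.63, against -4.22 to -3.84, and -3.09, against -0.54 to -0.05. On day 1 replicate 4, also one of the 5, Slc41a2 had -3.50, against -2.61 to -2.32. The remaining values were 1.91 for Slc26a11 on day 14 replicate 3, -4.24 for Slc28a2b on day 1 replicate 2, and 4.16 for Slc39a4 on day 7 replicate 5.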

How the results depend on the processing

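Of 67 differences of named carriers rerun under the alternatives, 57 were called and none of these changed sign, while 4 carriers with a small range (Slc10a1, Slc26a11, Slc35e3 and Slc36a4) did. Of the 57 calls, 35 held under every alternative that could be run. Leaving out the 5 arrays raised 4 of the 6 counts: 123 members passed for day 14 against day 7, 38 for day 42 against day 14, 139 for day 42 against day 1 and 163 over all ages. Without those and day 14 replicate 5, the counts were 136, 42, 143 and 169, with 6 for day 4 against day 1 and 3 for day 7 against day 4; of all genes 44.0%, 13.8%, 47.9%, 56.6%, 1.6% and 0.195% passed. The authors' deposited values gave 76, 28, 117 and 141, with 2 and 1 in the first week. For these values and the settings that follow, the share of all genes is not given. A change in these counts is therefore not read as particular to carriers. Median scaling gave 19 for day 14 against day 7, and quantile normalization 15 for day 42 against day 14. Fits of the compared ages alone gave 97 for day 14 against day 7, 3 for day 42 against day 14 and 33 for day 42 against day 1. Leaving out each array in turn gave 76 to 113 over all ages, 0 to 1 for day 4 against day 1, 0 to 2 for day 7 against day 4, 26 to 44 for day 14 against day 7, 5 to 11 for day 42 against day 14 and 58 to 92 for day 42 against day 1. The count for day 42 against day 14 was 5 without day 42 replicate 1, 2 or 4. The cause was not tested. With replicate number as a block, 76 members passed over all ages, 35 for day 14 against day 7, 8 for day 42 against day 14 and 61 for day 42 against day 1. Same-numbered arrays did not deviate together (median correlation -0.0099 over 46 pairs), so the numbers were not taken as pairs. The block ended the calls of Slc20a1 for day 42 against day 14 (adjusted p = 0.0539), Slc25a37 for day 14 against day 7 (adjusted p = 0.0597) and Slc38a5 for day 42 against day 1 (adjusted p = 0.0522), and no other named call. Of the named calls, 14 were lost with only the compared ages in the fit, 9 with normexp, 6 with median scaling, 4 with the mean of a gene's probes, 3 in the authors' deposited values, 2 with no filter on dim probes, and 1 each with quantile normalization and slide as a block (Slc20a1 both times). The carriers whose calls were lost under normexp included Slc22a3, Slc25a53, Slc35d3 and Slc16a5, which were well above background on 12, 20, 22 and 23 arrays; the cause was not tested.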
